A study of Mus musculus with 12 samples.

Results

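The genes described here encode the enzymes of the citrate cycle, of pyruvate entry into it and of the NADH shuttles, a list of 38 genes. Members were chosen by name, as the probes annotated to the listed genes, with 1 probe per gene, the brightest on average over 12 samples, if it lay above background on at least 2 of them. A probe was named for 37 of the 38 genes, with none named for Sdha, the flavoprotein subunit of succinate dehydrogenase. Pdhx, a structural subunit of pyruvate dehydrogenase, and Me3, a mitochondrial malic enzyme, lay above background on 0 arrays and were not tested. The remaining 35 members were tested among 9318 genes of the whole series. Of these, 31 were above background on all 12 arrays, while Pdk2 was so on 11, Got1 on 10, Pdp1 on 7 and Sucla2 on 2.

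RNA came from mouse cells sorted as beta cells, the insulin-secreting cells of the islets of Langerhans, and was hybridised to Illumina expression arrays. All mice were heterozygous for a Pdx1-GFP transgene on a cross with the ICR stock, and cells were sorted for green fluorescence after trypsin had dissociated the islets. The samples were 4 from stage E18.5, late in gestation, 3 from postnatal day 1 (P1), 2 from postnatal day 10 (P10) and 3 from adults of 5 weeks. No treatment or second genotype was part of the design, which compared ages, and the labels do not say whether samples of an age are separate litters or pools, so p-values measure only how these samples spread, which may be technical in part. The Pdx1 promoter that drives the fluorescent protein is active in pancreatic cells other than beta cells too.

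Pyruvate made from glucose enters the mitochondrion, where pyruvate dehydrogenase turns it into acetyl-CoA and pyruvate carboxylase turns it into oxaloacetate. The citrate cycle oxidises acetyl-CoA and passes the electrons to the respiratory chain as NADH and through succinate dehydrogenase. NADH made in the cytosol cannot cross the inner mitochondrial membrane, and its electrons are carried in by the malate-aspartate and glycerol phosphate shuttles. In beta cells this oxidation of glucose raises ATP, which closes potassium channels and leads to insulin release. Citrate, malate and isocitrate that leave the mitochondrion are used by cytosolic enzymes, among them ATP citrate lyase and the malic enzyme Me1.

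All 7 beta cell markers examined lay above background in every sample, and Ins2, which encodes insulin, averaged log2 levels of 13.46 in E18.5 samples, 13.59 in P1 samples, 13.54 at P10 and 13.52 in adults. The beta cell markers were not all as even as Ins2. Between adults and E18.5, 2 of the 7 were higher and 1 lower at an adjusted p under 0.05 in limma. That is 42.9%, against 40.4% of all genes tested, with log2 differences from -0.60 to 1.57. Other cells of the pancreas were represented as well. Of 31 listed markers of acinar cells, which make digestive enzymes, 26 were tested, and their summed linear level lay between 1057 and 3685 for E18.5, 1341 and 7686 for P1, 30123 and 73794 for P10, and 37106 and 91729 for adults. The acinar markers Ctrc, Pnliprp2, Rbpjl and Gp2 were not above background in any E18.5 sample, and Rbpjl was not in any P1 sample. Of the 7 tested markers of other islet cells, only Ghrl was below background in all adult samples. Samples of an age correlated across probes with r from 0.977 to 0.991, and samples of different ages with r from 0.902 to 0.981, with probes not being independent replicates.

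Few members changed over any single interval, and 13 of 35 differed between adults and E18.5. A log2 level here is the log2 of the background-corrected, quantile-normalized intensity of a gene's probe. It can be compared between samples, but not between genes. A difference passed when its Benjamini-Hochberg adjusted p from limma, over all 9318 genes, was under 0.05. Between adults and E18.5, 5 members rose and 8 fell, or 1 and 9 when arrays were centred on their medians in place of quantile normalization. The first count is 37.1% of the members, where 40.4% of all genes tested passed. By direction, 14.3% of members rose against 18.6% of all genes, and 22.9% fell against 21.9% of all genes. The median absolute log2 difference was 0.28 among members and 0.26 among all genes, and the median signed difference was 0.08 among members and -0.01 among all genes. The share of members that passed was near that of all genes, and what follows concerns which of them moved and in which direction. In such bulk samples, fewer cells of a type and less RNA per cell cannot be told apart. The acinar levels given above rose over the same ages, age and acinar content cannot be told apart, and with the mean acinar level as a covariate 0 of the 13 differences passed, where 1.35% of all genes did. In that fit 12 of the 13 kept their direction, and the median standard error over the 35 members was 0.36, against 0.12 without the covariate.

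**Figure D1:**
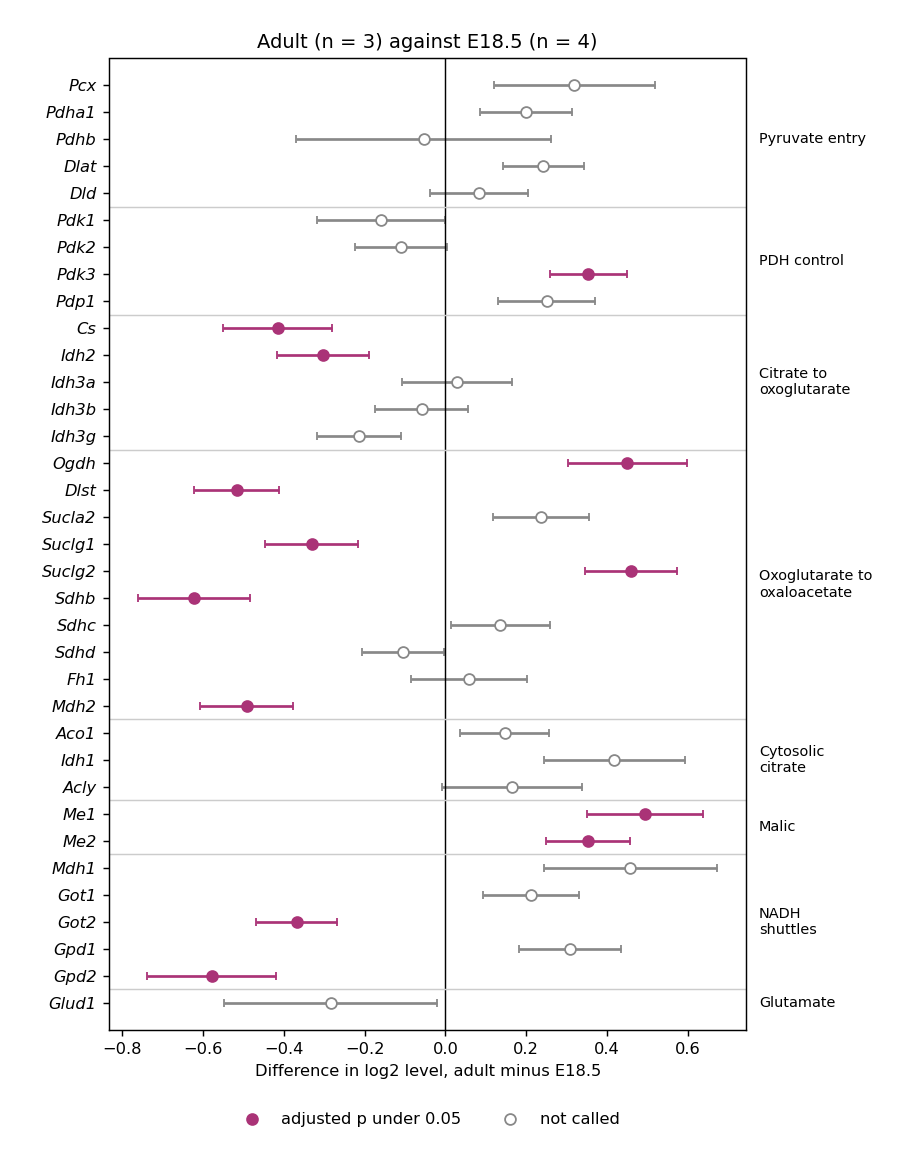
Log2 difference, adult minus E18.5, for the 35 members tested, with bars of 1 standard error from the limma fit. Filled points passed the threshold on the adjusted p, 5 of them right of 0 and 8 left of it. Only the group from oxoglutarate to oxaloacetate holds filled points on both sides, 2 right of 0 and 4 left of it.

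Few members passed over the shorter steps. Between P1 and E18.5, 0 of 35 members passed in limma, where 5.39% of all genes passed, 2.55% higher and 2.83% lower. An unadjusted p under 0.05 was found for 6 of the 35 members and for 1921 of all 9318 genes. Between P10 and P1 only Dld passed, which is 2.86% of the members, where 11.5% of all genes passed, 5.48% higher and 6.05% lower. Between adults and P10, Idh2 and Gpd2 passed, both lower in adults, which is 5.71% of the members against 13.3% of all genes, 6.01% higher and 7.27% lower. The moderated F-test over the 4 ages called 15 members, or 42.9%, against 43.5% of all genes. Those 15 were the 13 that differed between adults and E18.5 without Suclg1, joined by Dld, Pdk2 and Glud1.

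**Figure D2:**
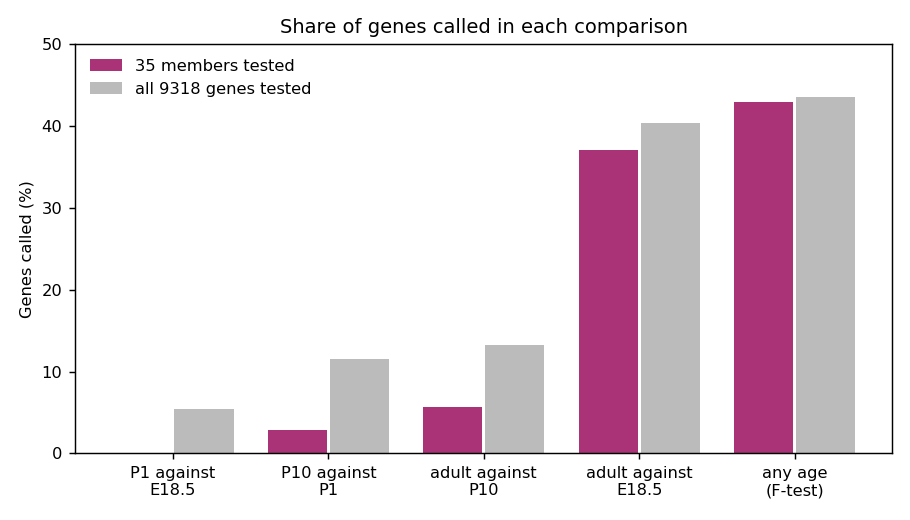
Percent of genes whose adjusted p was under 0.05 in each comparison, for the 35 members and for all 9318 genes tested. The members' bars are the lower of each pair, at 2.86% against 11.5% between P10 and P1 and at 42.9% against 43.5% in the test over all ages.

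Of the 10 tested enzymes that carry oxoglutarate to oxaloacetate, 6 differed between adults and E18.5, with 4 lower and 2 higher, where 21.9% of all genes were lower and 18.6% higher. The groups of enzymes by role hold 10 genes or fewer, and their counts here and below describe them and show nothing particular to a group. Ogdh and Dlst, which belong to the same complex, moved in opposite directions. Ogdh, the first (E1) component of the oxoglutarate dehydrogenase complex, had log2 levels of 7.62, 7.39, 7.52 and 7.57 in E18.5 samples, 7.25, 7.46 and 7.73 in P1 samples, 7.92 and 7.83 at P10, and 8.35, 7.74 and 7.84 in adults. Each P10 and adult sample was above each of the E18.5 and P1 samples, and adult replicate 1 was the highest. Ogdh rose by 0.45 ± 0.15 (SE) between adults and E18.5, a fold of 1.37 with an adjusted p of 0.025. Without adult replicate 1 the difference was 0.26 with an adjusted p of 0.14, and without E18.5 replicate 2 it was 0.41 with an adjusted p of 0.063.

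Dlst is the succinyltransferase (E2) of that complex. Its log2 levels were 8.35, 8.13, 8.14 and 8.23 in E18.5 samples, 8.17, 7.99 and 7.93 in P1 samples, 8.03 and 7.92 at P10, and 7.80, 7.73 and 7.55 in adults. All 3 adult samples lay below all samples of the earlier ages. Dlst fell by 0.52 ± 0.11 (SE) between adults and E18.5, 1.43-fold lower in adults, with an adjusted p of 0.0013. No single sample left out ended this call.

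Within succinyl-CoA ligase, the GDP-forming beta subunit Suclg2 had log2 levels of 5.90, 6.27, 6.17 and 6.22 in E18.5 samples, 6.08, 6.16 and 6.12 in P1 samples, 6.31 and 6.25 at P10, and 6.45, 6.79 and 6.55 in adults. The adult samples stood above every earlier sample, and the difference between adults and E18.5 was 0.46 ± 0.11 (SE), 1.38-fold, with an adjusted p of 0.0051. The shared alpha subunit Suclg1 had log2 levels of 10.67, 10.93, 11.08 and 10.89 in E18.5 samples, 10.85, 11.14 and 10.93 in P1 samples, 10.75 and 10.85 at P10, and 10.48, 10.57 and 10.63 in adults. Suclg1 fell by 0.33 ± 0.11 (SE) between adults and E18.5, with an adjusted p of 0.032 and adult and E18.5 samples that did not overlap. This fall was not shared by the gene's other probes, which differed by -0.11 and 0.00 (log2, adult minus E18.5). It was also lost without any 1 of E18.5 replicates 2, 3 and 4 or adult replicates 1 and 2, with adjusted p-values from 0.055 to 0.098. The ADP-forming beta subunit Sucla2 was at background on 10 of 12 arrays and did not pass, with a difference of 0.24 (95% interval -0.02 to 0.49).

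Succinate dehydrogenase is both a cycle enzyme and complex II of the respiratory chain. Its iron-sulphur subunit Sdhb had log2 levels of 7.93, 7.82, 7.61 and 7.99 in E18.5 samples, 7.55, 7.36 and 7.74 in P1 samples, 7.69 and 7.18 at P10, and 7.30, 7.17 and 7.18 in adults. All adult samples were below all E18.5 samples, and the P10 samples lay near one group each. Sdhb had the largest fall of any member between adults and E18.5 in this fit, by 0.62 ± 0.14 (SE), 1.54-fold lower in adults, with an adjusted p of 0.0024. A second bright probe differed by -0.43, and the dimmest one, above background on 9 arrays, by 0.03. The membrane anchors Sdhc and Sdhd did not pass, with differences of 0.14 (95% interval -0.13 to 0.40) and -0.10 (95% interval -0.32 to 0.11).

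Further along the cycle, the mitochondrial malate dehydrogenase Mdh2 had log2 levels of 9.13, 9.50, 9.14 and 9.15 in E18.5 samples, 9.14, 9.30 and 9.12 in P1 samples, 8.92 and 9.11 at P10, and 8.69, 8.85 and 8.68 in adults. The adult samples were the lowest of the 12, and E18.5 replicate 2 was the highest. Mdh2 fell by 0.49 ± 0.12 (SE) between adults and E18.5, 1.41-fold lower in adults, with an adjusted p of 0.0035. Fh1, fumarase, did not pass, with a difference of 0.06 (95% interval -0.25 to 0.36). Between adults and E18.5, Dlst, Mdh2, Sdhb, Suclg2 and, among the shuttle enzymes, Got2 kept their calls under every alternative tried apart from the acinar covariate. In the test over all ages, Mdh2 was lost without adult replicate 3 (adjusted p = 0.0504), and Suclg2 with median centring (0.096) or without adult replicate 2 (0.087). Got2 was lost in it with the replicate block (0.060) or without adult replicate 1 (0.097) or 2 (0.12). Calls over all ages were less steady for Cs and Ogdh, each lost in 13 of 24 alternatives, Dld (10), Idh2 (9) and Me1 (9). With the acinar covariate included, Mdh2 was lost in 2, Suclg2 in 3 and Got2 in 5.

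**Figure D3:**
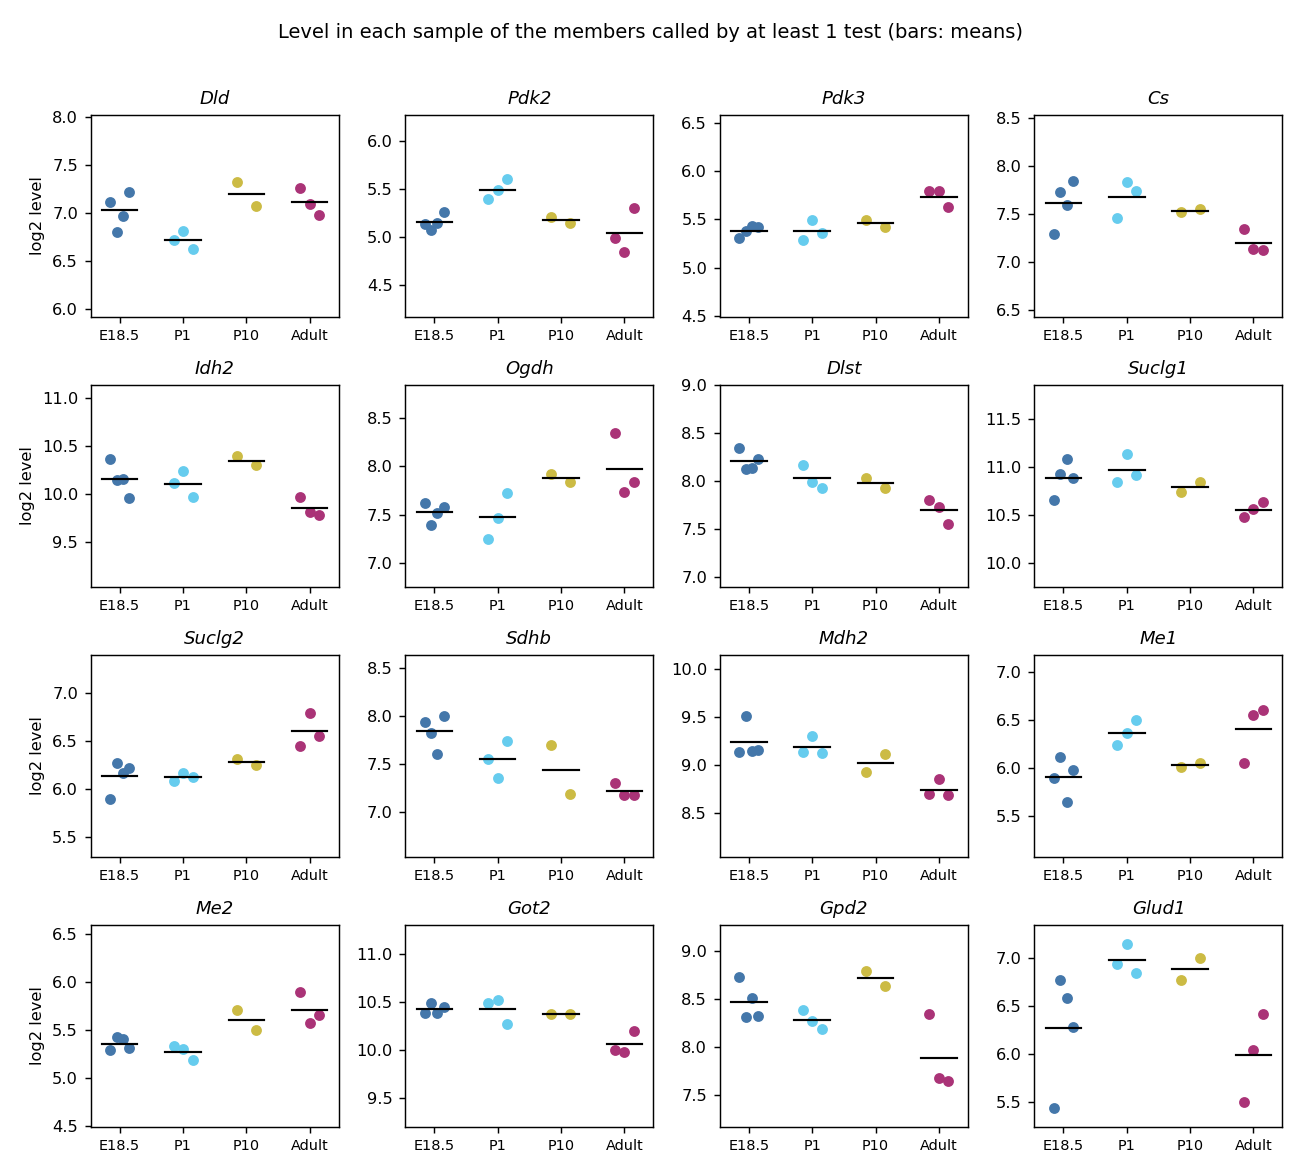
Log2 level in each sample, by age, of the 16 members called in at least 1 comparison or over all ages, with bars at the age means. Each panel spans the same log2 height. Adults lie below every earlier sample for Dlst, Suclg1, Mdh2 and Got2 and above every earlier sample for Suclg2 and Pdk3. How many of all genes separate in this way was not counted.

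The promoters of the citrate cycle enzymes with the largest changes between adults and E18.5 are shown to set the sequences of rising and falling genes side by side. They are the lowest differences, Sdhb and Dlst, and the highest, Suclg2 and Ogdh. Each runs from 250 bases before to 50 bases after the first start listed by RefSeq (GRCm38.p6), 5′ to 3′ along the gene's own strand. Capitals mark matches, on either strand, to GGGCGG, the box bound by Sp1, or to CCGGAAG, the core bound by GABPA (NRF2), an activator of respiratory chain genes. The 4 regions are chr4:140961021-140961320 on the plus strand for Sdhb, chr12:85110583-85110882 on the plus strand for Dlst, chr6:95718797-95719096 on the minus strand for Suclg2 and chr11:6291347-6291646 on the plus strand for Ogdh, for which 6 starts are listed.
Sdhb: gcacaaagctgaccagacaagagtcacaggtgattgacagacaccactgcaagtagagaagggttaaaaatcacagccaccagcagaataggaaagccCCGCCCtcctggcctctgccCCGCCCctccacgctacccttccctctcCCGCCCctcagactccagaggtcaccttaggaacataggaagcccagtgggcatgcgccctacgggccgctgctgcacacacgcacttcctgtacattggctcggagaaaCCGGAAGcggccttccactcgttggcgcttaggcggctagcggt
Dlst: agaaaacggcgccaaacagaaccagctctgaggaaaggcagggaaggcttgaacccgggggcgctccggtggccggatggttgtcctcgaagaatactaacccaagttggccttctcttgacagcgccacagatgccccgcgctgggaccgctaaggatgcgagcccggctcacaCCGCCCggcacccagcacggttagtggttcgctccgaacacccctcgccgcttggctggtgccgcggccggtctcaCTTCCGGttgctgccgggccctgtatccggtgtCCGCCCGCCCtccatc
Suclg2: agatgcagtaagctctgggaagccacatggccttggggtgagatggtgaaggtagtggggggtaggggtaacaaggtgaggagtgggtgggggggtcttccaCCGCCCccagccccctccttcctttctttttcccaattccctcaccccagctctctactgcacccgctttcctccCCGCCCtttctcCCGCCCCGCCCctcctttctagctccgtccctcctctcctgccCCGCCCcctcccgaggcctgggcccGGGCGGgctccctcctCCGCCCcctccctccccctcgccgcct
Ogdh: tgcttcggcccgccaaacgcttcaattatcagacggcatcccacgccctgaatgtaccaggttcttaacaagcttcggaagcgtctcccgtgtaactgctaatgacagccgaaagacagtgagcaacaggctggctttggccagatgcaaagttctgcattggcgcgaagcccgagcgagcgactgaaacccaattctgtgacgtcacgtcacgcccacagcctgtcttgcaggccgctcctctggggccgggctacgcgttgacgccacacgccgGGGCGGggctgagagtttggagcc
Promoters were found for 30 of the 35 tested members. The Sp1 box stood in 70% of these and in 35.9% of 27025 promoters of the same length, and the GABPA core in 20% and 9.12%. These 27025 promoters, 1 per gene, include genes that were not among the 9318 tested here. The members were not set against the promoters of the tested genes alone. Among the 8 members lower in adults the Sp1 box was found in 5 and the GABPA core in 2, Sdhb and Dlst. The 4 higher members that had a promoter all held an Sp1 box, and 0 held a GABPA core. TCAAGGTCA, the element of the estrogen-related receptor Esrra, stood in 3.33% of the members (Sdhd alone) against 0.407% of all promoters. The palindrome bound by Nrf1 was in 0 members against 0.977% of all promoters, and the E-box CACGTG in 6.67% against 7.24%. All motifs were searched on both strands, and none of them contains another. These matches are letters in a window and were not tested against the expression values.

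Of the 5 enzymes between citrate synthesis and oxoglutarate, 2 fell between adults and E18.5, where 21.9% of all genes were lower. Cs, citrate synthase, had log2 levels of 7.29, 7.73, 7.60 and 7.84 in E18.5 samples, 7.46, 7.83 and 7.75 in P1 samples, 7.52 and 7.55 at P10, and 7.35, 7.14 and 7.13 in adults. The adult samples were low, although E18.5 replicate 1 was below adult replicate 1, so that the ages overlapped. Cs fell by 0.41 ± 0.14 (SE), 1.33-fold lower in adults than at E18.5, with an adjusted p of 0.024. The call was lost without E18.5 replicate 2 or 4 or adult replicate 2 or 3, with adjusted p-values from 0.062 to 0.079.

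Idh2, the NADP-dependent isocitrate dehydrogenase of mitochondria, had log2 levels of 10.37, 10.14, 10.16 and 9.95 in E18.5 samples, 10.12, 10.23 and 9.96 in P1 samples, 10.39 and 10.30 at P10, and 9.97, 9.81 and 9.77 in adults. The adult samples were all below the P10 samples and overlapped those of E18.5. Idh2 was 1.41-fold lower in adults than at P10 (adjusted p = 0.027) and 1.23-fold lower than at E18.5 (adjusted p = 0.046). The call against P10 was lost without either P10 replicate or without adult replicate 2 or 3, with adjusted p-values from 0.068 to 0.17. The call against E18.5 was lost when any 1 of 9 samples was left out, namely E18.5 replicates 1, 2 and 3, P1 replicates 1 and 2, both P10 replicates and adult replicates 2 and 3, with adjusted p-values from 0.050 to 0.13. No subunit of the NAD-dependent isocitrate dehydrogenase, whose catalytic subunit is Idh3a, passed with the processing used here. Idh3a differed by 0.03 (95% interval -0.26 to 0.32) and Idh3b by -0.06 (95% interval -0.30 to 0.19) between adults and E18.5. Idh3g, a regulatory subunit, differed by -0.21 (95% interval -0.44 to 0.01) between adults and E18.5, its second probe by -0.21 as well, and by -0.36 between adults and P10 (adjusted p = 0.075). It passed between adults and E18.5 with median centring (adjusted p = 0.020) or no scaling (0.036), and between adults and P10 without the background correction (0.046) or with an offset of 50 (0.035).

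At the entry of pyruvate, 0 of 5 tested enzymes passed between adults and E18.5 in limma, where 40.4% of all genes did. Of the 5, 1 had an unadjusted p under 0.05, as did 4494 of all 9318 genes. Pcx, the pyruvate carboxylase, ranged from 5.37 to 5.79 (log2) in E18.5 samples, 5.53 to 5.61 in P1 samples, 5.51 to 6.10 at P10 and 5.45 to 6.48 in adults. Its adult minus E18.5 difference was 0.32 (95% interval -0.11 to 0.74), and without adult replicate 2 it was 0.57 with an adjusted p of 0.028. Pdha1 and Pdhb, the E1 subunits of pyruvate dehydrogenase, differed by 0.20 and -0.05, and Dlat, its E2, by 0.24 (95% interval 0.03 to 0.46, adjusted p = 0.067). Dlat passed without E18.5 replicate 4, with an adjusted p of 0.046.

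Dld, the dihydrolipoamide dehydrogenase that pyruvate, oxoglutarate and branched-chain ketoacid dehydrogenases share, was the single member to pass between P10 and P1. It had log2 levels of 7.11, 6.80, 6.97 and 7.22 in E18.5 samples, 6.72, 6.81 and 6.62 in P1 samples, 7.32 and 7.07 at P10, and 7.26, 7.09 and 6.98 in adults. The P1 samples were low and all lay below the P10 and adult samples. Dld was 1.39-fold higher at P10 than at P1, by 0.48 ± 0.14 (SE), with an adjusted p of 0.046. This call lay at the threshold and was lost without E18.5 replicate 3, without any 1 of the P1 or P10 samples, or without adult replicate 2, with adjusted p-values from 0.059 to 0.32.

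Of the 3 tested kinases that phosphorylate and so inhibit pyruvate dehydrogenase, 1 rose between adults and E18.5, where 18.6% of all genes were higher. Pdk3 had log2 levels of 5.31, 5.38, 5.43 and 5.42 in E18.5 samples, 5.29, 5.49 and 5.36 in P1 samples, 5.50 and 5.42 at P10, and 5.79, 5.79 and 5.63 in adults. The adult samples stood above all others, and Pdk3 was 1.28-fold higher in adults than at E18.5 (adjusted p = 0.0086). Pdk2 had log2 levels of 5.14, 5.08, 5.14 and 5.26 in E18.5 samples, 5.39, 5.49 and 5.60 in P1 samples, 5.21 and 5.15 at P10, and 4.99, 4.84 and 5.30 in adults. It was highest in the P1 samples and passed the test over all ages (adjusted p = 0.035), while its P1 minus E18.5 difference of 0.34 had an adjusted p of 0.10. The call over all ages was lost when adult replicate 1 or 2, P10 replicate 2, P1 replicate 2 or 3, or E18.5 replicate 2 or 3 was left out, with adjusted p-values from 0.052 to 0.14, and with an offset of 50 (adjusted p = 0.052). That of Pdk3 was lost without adult replicate 1 (adjusted p = 0.088) or 2 (adjusted p = 0.10). Pdk1 differed by 0.35 between P1 and E18.5 (adjusted p = 0.23) and by -0.48 between P10 and P1 (adjusted p = 0.12). Without P1 replicate 2 the second of these was -0.66, with an adjusted p of 0.044. Pdp1, a phosphatase that reverses the kinases, differed by 0.25 between adults and E18.5 (95% interval -0.01 to 0.51).

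Malic enzymes turn malate into pyruvate, and both tested members rose between adults and E18.5, where 18.6% of all genes were higher. Me1, the cytosolic NADP-dependent form, had log2 levels of 5.89, 6.12, 5.65 and 5.98 in E18.5 samples, 6.24, 6.37 and 6.50 in P1 samples, 6.02 and 6.06 at P10, and 6.06, 6.55 and 6.61 in adults. The P1 samples were all above those of E18.5 and P10, and adult replicate 1 lay within the range of E18.5. Me1 was 1.41-fold higher in adults than at E18.5, by 0.49 ± 0.14 (SE), with an adjusted p of 0.013. Its second probe differed by -0.17, in the other direction, and the call was lost without adult replicate 2 (adjusted p = 0.063) or 3 (adjusted p = 0.069). The call was also lost with median centring (adjusted p = 0.063) and with averaged probes (adjusted p = 0.38). Without adult replicate 1, Me1 passed between P1 and E18.5 (adjusted p = 0.037) and between adults and P10 (adjusted p = 0.035). With the acinar covariate its adult minus E18.5 difference turned to -0.10.

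Me2, the mitochondrial NAD-dependent form, had log2 levels of 5.29, 5.42, 5.40 and 5.31 in E18.5 samples, 5.33, 5.30 and 5.18 in P1 samples, 5.70 and 5.50 at P10, and 5.90, 5.57 and 5.66 in adults. All P10 and adult samples lay above all earlier ones. Me2 was 1.28-fold higher in adults than at E18.5 (adjusted p = 0.015), and without adult replicate 1 the difference was 0.26 with an adjusted p of 0.076. With median centring the difference was 0.24 with an adjusted p of 0.092.

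In the glycerol phosphate shuttle, the mitochondrial enzyme Gpd2 was lower in adults than at P10 and at E18.5. It had log2 levels of 8.73, 8.31, 8.51 and 8.32 in E18.5 samples, 8.39, 8.27 and 8.19 in P1 samples, 8.80 and 8.64 at P10, and 8.35, 7.68 and 7.65 in adults. Adult replicates 2 and 3 were far below every other sample, and adult replicate 1 lay within the range of E18.5 but below P10. Gpd2 was 1.77-fold lower in adults than at P10, by 0.83 ± 0.19 (SE), with an adjusted p of 0.010. Against E18.5 it was 1.49-fold lower, with the same adjusted p of 0.010 after rounding. The call against E18.5 was lost without adult replicate 2 or 3 (adjusted p of 0.057 in each case), and the call against P10 without P10 replicate 1 (adjusted p = 0.10) or 2 (adjusted p = 0.052). A second probe of Gpd2 differed by -0.27 between adults and P10 and by -0.09 between adults and E18.5. With averaged probes both calls were lost, with adjusted p-values of 0.068 against P10 and 0.10 against E18.5. The call of Gpd2 over all ages was then lost too (adjusted p = 0.10). Gpd1, the cytosolic partner, differed by 0.31 between adults and E18.5 (95% interval 0.04 to 0.58, adjusted p = 0.064). Without E18.5 replicate 4, Gpd1 passed at 0.43 with an adjusted p of 0.0059.

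In the malate-aspartate shuttle, the mitochondrial aspartate aminotransferase Got2 had log2 levels of 10.39, 10.49, 10.39 and 10.45 in E18.5 samples, 10.50, 10.53 and 10.27 in P1 samples, 10.38 and 10.38 at P10, and 10.002, 9.98 and 10.20 in adults. The earlier ages were close together and the adult samples lay below all of them. Got2 was 1.29-fold lower in adults than at E18.5, by 0.37 ± 0.10 (SE), with an adjusted p of 0.0093. The cytosolic members did not pass, with a difference of 0.21 for Got1 (95% interval -0.04 to 0.47) and 0.46 for Mdh1 (adjusted p = 0.11). A second Mdh1 probe, above background on all 12 arrays, differed by 0.45, and the dimmest, so on 4 arrays, by 0.04. Mdh1 passed with averaged probes (adjusted p = 0.043), and with the replicate block both Mdh1 (0.015) and Got1 (0.045) passed. Mdh1 varied widely within ages, from 6.47 to 7.38 (log2) in adults and from 5.92 to 6.84 at E18.5, with replicate 1 the lowest in both. Without adult replicate 1 the Mdh1 difference was 0.70 with an adjusted p of 0.019, and without E18.5 replicate 4 Got1 passed with an adjusted p of 0.040.

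**Figure D4:**
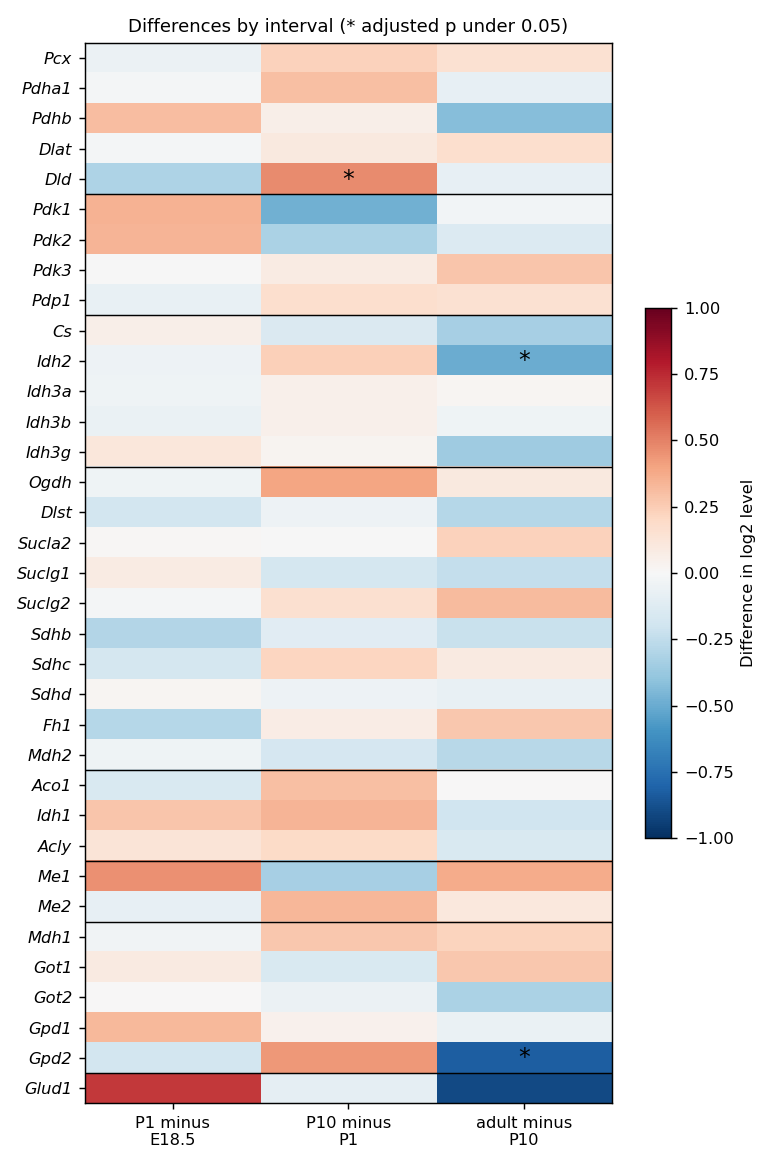
Log2 difference of each tested member over the 3 successive intervals, later age minus earlier age, as colour from blue (lower) to red (higher), grouped by role. Asterisks mark the 3 differences that passed, Dld between P10 and P1 and Idh2 and Gpd2 between adults and P10.

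Glud1, glutamate dehydrogenase, which feeds oxoglutarate into the cycle, passed the test over all ages (adjusted p = 0.027). Its log2 levels were 5.44, 6.77, 6.59 and 6.28 in E18.5 samples, 6.94, 7.14 and 6.84 in P1 samples, 6.77 and 6.998 at P10, and 5.50, 6.04 and 6.42 in adults. The P1 and P10 samples were high, and adult replicate 1 and E18.5 replicate 1 were far below the rest. The adult minus P10 difference was -0.90 (95% interval -1.57 to -0.22) with an adjusted p of 0.075. Without E18.5 replicate 1 it had an adjusted p of 0.016, and the adult minus E18.5 difference became -0.56 with an adjusted p of 0.038. The call over all ages was lost without P1 replicate 1 or 2, P10 replicate 2, or adult replicate 1 or 2, with adjusted p-values from 0.053 to 0.073, with trend and robust settings (adjusted p = 0.082) and with averaged probes (adjusted p = 0.084). Its second probe, above background on 6 arrays, differed by -0.13 between adults and E18.5. Between adults and P10 that probe differed by 0.06, in the other direction from the probe used. Between P1 and E18.5 it differed by 0.08, against 0.70 for the probe used. The same samples were low in Pdhb, with log2 levels of 7.24 in adult replicate 1 and 6.996 in E18.5 replicate 1, against 7.99 to 8.53 in the other 10 samples.

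The cytosolic enzymes that use exported citrate and isocitrate did not pass between adults and E18.5 in limma (0 of 3, where 40.4% of all genes passed). Of the 3, 1 had an unadjusted p under 0.05, as did 4494 of all 9318 genes. Acly, ATP citrate lyase, which makes cytosolic acetyl-CoA, had a difference of 0.17 (95% interval -0.20 to 0.53) and adult levels from 11.95 to 12.90 (log2). Aco1, the cytosolic aconitase that also acts as an iron regulatory protein, differed by 0.15. Idh1, the cytosolic NADP-dependent isocitrate dehydrogenase, differed by 0.42 (adjusted p = 0.070), and without adult replicate 1 by 0.55 with an adjusted p of 0.037.

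Partner enzymes were also set against each other within each sample, for pairs picked after their values were seen, so the differences are described without a test. The first gene of each pair is the one with the higher adult minus E18.5 difference, so the shared direction follows from this choice. The distance between different probes has no meaning in itself, and only its change with age is given. Ogdh minus Dlst was -0.73, -0.74, -0.62 and -0.66 (log2) at E18.5, -0.92, -0.52 and -0.20 at P1, -0.11 and -0.09 at P10, and 0.55, 0.01 and 0.29 in adults. In adults the ratio of Ogdh to Dlst was on average 1.95 times that of E18.5. The corresponding factor was 1.73 for Suclg2 over Suclg1 and 1.69 for Sdhc over Sdhb. Between cytosolic and mitochondrial shuttle partners, the factor was 1.93 for Mdh1 over Mdh2, 1.85 for Gpd1 over Gpd2 and 1.49 for Got1 over Got2, with Got1 not above background on 1 of 4 arrays at E18.5 and 1 of 2 at P10. A value within an array shows unequal change of the probes compared, and does not say which of them changed. The factors hold for the probes used. Other kept probes of Suclg1, Sdhb, Mdh1 and Gpd2 differed less in size between adults and E18.5, as given above.

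**Figure D5:**
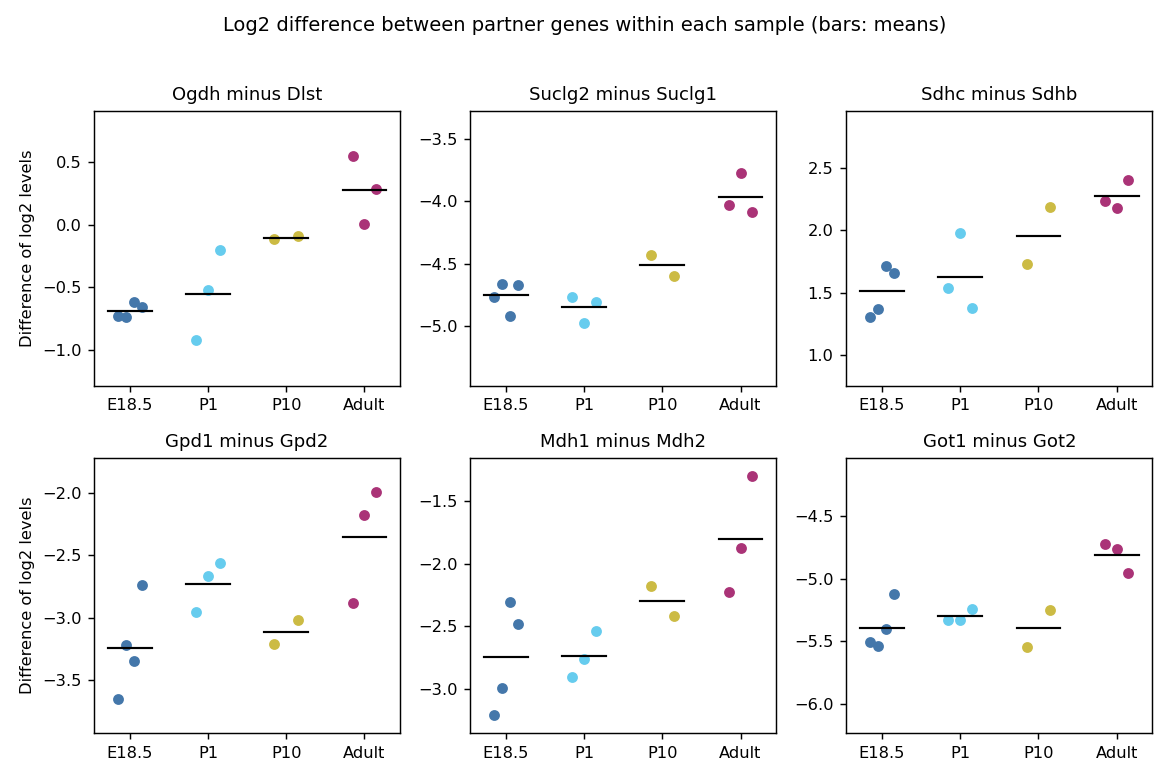
Log2 level of the first gene minus that of the second within each sample, by age, for 6 pairs of partner enzymes, with bars at the age means. The pairs were picked after their values were seen, with the gene of the higher adult minus E18.5 difference put first. Adult means above those of E18.5 in all 6 panels follow from that choice. For Gpd1 minus Gpd2 adult replicate 1 lies within the range of E18.5.

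Neighbouring genes of the pathway, a list of 51 that holds carriers, lipoylation and assembly factors and the ketone and branched-chain enzymes, had 32 tested. Between adults and E18.5, 5 rose and 6 fell (34.4%, where 40.4% of all genes passed). Pcca, a propionyl-CoA carboxylase subunit, rose by 0.83 (adjusted p = 0.000605), Acss2, which makes acetyl-CoA from acetate, by 0.60, Bckdk, the kinase that inhibits the branched-chain dehydrogenase, by 0.45, and Slc25a12, an aspartate-glutamate carrier of the malate-aspartate shuttle, by 0.43. Oxct1, which activates ketone bodies with succinyl-CoA, fell by 0.58 (log2) between P1 and E18.5 (adjusted p = 0.022), 1.79-fold higher at P10 than at P1 (adjusted p = 0.0032), and 1.47-fold higher in adults than at E18.5 (adjusted p = 0.0037). Its log2 means were 7.65 for E18.5, 7.07 for P1, 7.91 for P10 and 8.21 for adults, so that P1 was the low point, as it was for Dld.

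Among the genes that fell between adults and E18.5, Ldha, lactate dehydrogenase A, was not above background in any adult sample and was at least 1.92-fold lower in adults (means of 4.59 in adults and 5.86 at E18.5, adjusted p = 0.0015). Bdh1, a ketone body dehydrogenase, fell by 0.56, Ireb2, an iron regulatory protein, by 0.47, Sdhaf1, an assembly factor of succinate dehydrogenase, by 0.41, Pdk4 by 0.41 and Slc25a10, the dicarboxylate carrier, by 0.32. Between P10 and P1, 5 of the 32 rose and 2 fell (21.9%, where 11.5% of all genes passed, 5.48% higher and 6.05% lower). Besides Oxct1 and Acss2 the higher ones were Pcca, the phosphatase Pdp2 and Bckdhb, at 1.72-fold, while Bckdha, the partner of Bckdhb in the branched-chain dehydrogenase, was 1.64-fold lower, and Gpt2, the mitochondrial alanine aminotransferase, 1.54-fold lower. Between adults and P10, Gpt2 was 1.87-fold higher, and Pdk4 and Slc25a10 were 1.56-fold and 1.33-fold lower. That is 9.38% of the 32, where 13.3% of all genes passed. Gpt2 was above background on 1 of 2 P10 arrays and Pdk4 on 2 of 3 adult arrays, so their folds at those ages rest partly on levels at background. Of 6 listed regulators of mitochondrial genes, 5 were tested. Nrf1 was 1.57-fold lower in adults than at P10 (adjusted p = 0.0089) and 1.36-fold lower than at E18.5 (adjusted p = 0.0099). Esrra was 1.23-fold lower in adults than at E18.5 (adjusted p = 0.042). Of the 5, 20% were lower in adults than at P10 and 40% than at E18.5, where 7.27% and 21.9% of all genes were. The calls of neighbouring genes and regulators were not followed through the alternatives in processing, the acinar covariate among them.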

How the data were processed

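RNA was measured in 12 samples, which sample titles placed in 4 ages with a replicate number. Per the labels' protocols, fluorescent cells were sorted, and biotin-labelled cRNA was made with an Illumina amplification kit. The values used were the probe intensity on a linear scale as deposited by the authors, for 25697 probes. How the authors corrected or scaled these values is not given in the sources used here, and neither are slides or scan dates. A further table of 24 columns was left aside, since none of its column names corresponds to a sample.

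Each array was corrected with limma's normexp (offset 16, fitted on the signals alone), then quantile-normalized and put on the log2 scale. The design foresaw this for signals that still held background, and column medians of 39.1 to 43.4 and smallest values of 25.3 to 29.3 were taken to do so. A probe was above background when it exceeded a limit at a p of 0.01, derived from the peak of the signal distribution and its width on the lower side, which 42.0% to 47.3% of probes did. Probes above it on at least 2 arrays were kept (13391), and the brightest per gene was used (9318 genes). Names came from GEO's platform table, with 1 gene for 23978 probes, several for 0 and no name here for 1719. The RefSeq table held the gene IDs of 23962 of them. No pair of samples shared more than 0.950% of its probe values, so each sample counted once.

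The test was limma 3.58.1 (R 4.3.3), lmFit and eBayes with age as a factor on all 12 samples, in 4 comparisons and an F-test. Members, gene lists and marker lists were chosen with earlier results of these data known. Every member is accounted for, those that passed a test are given in every sample, and of the neighbouring genes and regulators those that passed are named. An "at least" fold sets the brighter age against a floor for the other age, the array's dimmest level that still exceeded background, averaged over its arrays. Besides the lists in the report, marker lists covered duct, endothelial and stromal, blood and cell cycle genes. Between adults and E18.5, 5 of 7 tested duct markers, 4 of 7 endothelial and stromal, 2 of 4 blood and 7 of 7 cell cycle markers were lower and 0 higher. In the same comparison 26 of 26 acinar markers were higher, and of all genes tested 21.9% were lower and 18.6% higher. Of the 7 beta cell markers 2 were higher and 1 lower, and of 7 other islet markers 2 were lower. Their part in the members' differences was not tested. The number of arrays limits the precision. The plots used matplotlib 3.10.9 (Python 3.11.15), and the fit was tested on simulated data.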

Additional observations from a re-analysis of the deposited data

Results flagged for a closer look

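In 3 of the 35 tested members, 1 of the 4 E18.5 samples stood apart from the others by more than the 95% limit of Dixon's test, which chance exceeds in about 1 in 20 groups. The value given is the sample's gap to its nearest neighbour as a share of the range of the 4 samples. For Idh1 it was 0.835, with E18.5 replicate 1 at a log2 level of 6.10 and the nearest of the others at 6.71. For Mdh2 it was 0.951, with E18.5 replicate 2 at 9.50 and the nearest at 9.15. For Gpd1 it was 0.833, with E18.5 replicate 4 at 5.59 and the nearest at 5.17. The ages with 3 samples or fewer were not examined in this way.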

How the results depend on the processing

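For P1 against E18.5 the count of members called was 0 and became 2 with array weights and 1 with the replicate block, and 0 to 1 when each sample was left out in turn. For P10 against P1 the count of 1 became 0 when dim probes were not filtered, with the replicate block and with the acinar covariate, 2 without both E18.5 replicate 1 and adult replicate 1, and 0 to 1 with single samples left out. For adults against P10 the count of 2 became 4 with an offset of 50, 1 with no scaling, 1 when a gene's kept probes were averaged, 5 with array weights, 4 without both those samples, 3 without the background correction and 3 with the replicate block, and 0 to 3 with single samples left out, 0 without either P10 sample. For adults against E18.5 the count of 13 became 0 with the acinar covariate and 9 to 14 with single samples left out. Over all ages the count of 15 became 0 with the acinar covariate and 5 to 15 with single samples left out, 5 without adult replicate 2 and 9 without adult replicate 1 or E18.5 replicate 3. The Me1 difference between adults and E18.5 was reversed to -0.10 by the acinar covariate. Leaving out both samples was chosen after seeing the data, and leaving out a P10 sample leaves 1 that is assumed to vary like the other ages. Median centring moved the median of all genes between adults and E18.5 to -0.11 and their split to 1198 higher and 2657 lower, against 1731 and 2036, and it gave 1 member higher and 9 lower, ending the calls of Me1, Me2, Ogdh and Pdk3. It moved the split to 149 and 349 for P1 against E18.5 (main 238 and 264), and to 382 and 830 for adults against P10 (main 560 and 677). Of 759 values of the results carried through 25 alternatives, 590 kept their direction and side of the threshold, 168 lost the threshold and 1 reversed. Same-numbered samples of different ages correlated in their deviations with r from -0.07 to 0.28 (median 0.06), with 5 of 15 pairs above 0.1. Differently numbered samples had r from -0.28 to 0.27 (median -0.03), with 6 of 38 pairs above 0.1. Of 12 samples, 6 were closest to their own number, and the 2 P10 samples mirror each other in such deviations. Whether numbers pair samples was not tested. The labels do not say that a number marks a shared litter or day, so no pairing was assumed in the main fit. The replicate block gave 17 members for adults against E18.5, 10 higher and 7 lower. The cause of these moves was not tested.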
